A study of Mus musculus with 7 samples.

Results

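Cadherins are calcium-dependent adhesion molecules. The classical members reach across the gap between neighbouring cells with their outer repeats, bind cadherins of the next cell, and hold the actin cytoskeleton through catenins bound to their inner tail. Type I members (such as N-cadherin) and type II members (such as OB-cadherin) differ in how their outermost repeat pairs, and cells that express different members tend to sort apart. Cadherin switching is the exchange of one member for another, best known as the exchange of E-cadherin (Cdh1) for N-cadherin (Cdh2) when epithelial cells turn mesenchymal. The 9 genes described here, out of 35727 in the deposited table, are 4 type I cadherins (Cdh2, Cdh3, Cdh4 and Cdh15), 4 type II cadherins (Cdh6, Cdh10, Cdh11 and Cdh18) and Cdh13, which has cadherin repeats but is held in the membrane by a lipid anchor and has no catenin-binding tail. They were selected on earlier results of the same comparison, so their values are given as a description, with no test.

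The data were RNA-seq counts of RFP-positive undifferentiated pleomorphic sarcoma cells sorted from mouse tumours of a p53KO Vgll3 OE line (3 libraries) and a p53KO Ccne1 OE line (4 libraries). Both lines share the p53 knockout and began as mesenchymal stem cells of female C57/Bl6 mice that received a retroviral vector for Vgll3, a cofactor of TEAD transcription factors, or for Ccne1, cyclin E1. Each line then went through wild-type female mice as subcutaneous tumours before the transplants that were sampled. There is 1 line per gene, so an effect of the transduced gene and other differences between the lines cannot be told apart. The labels do not say that the libraries of a group came from separate tumours, so p-values measure only the spread between these libraries.

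Library totals were 21725890 to 53610300 counts. Levels are in CPM, a gene's counts scaled to a common library size. Vgll3 itself was 285, 255 and 216 CPM in the Vgll3-labelled libraries, against 37.9, 54.3, 54.5 and 56.2 CPM in the Ccne1-labelled ones. Ccne1 was 12.7, 15.1 and 17.0 CPM in the Vgll3-labelled libraries, against 6.73, 9.24, 18.3 and 16.7 CPM in the Ccne1-labelled libraries, so the RNA of the second transduced gene did not separate the groups and the group names below are those of the labels. Vgll3 replicate 3 stood apart within its group. Its log2 CPM values correlated with those of Vgll3 replicates 1 and 2 at r = 0.956 and 0.960 across genes, against 0.985 between those replicates and 0.978 to 0.987 among Ccne1 libraries. Where leaving it out changed the call of a gene named below from the gene lists or moved a value of a cadherin by over 1.5 times, the value without it is given as well.

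Of the 9 cadherins, 6 had enough counts for the gene-wise fit, and 3 (Cdh3, Cdh4 and Cdh10) did not. Among the 6, 4 were higher in Vgll3 libraries (Cdh2, Cdh11, Cdh15 and Cdh18) and 2 were lower (Cdh6 and Cdh13), and for each of them every Vgll3 library lay on one side of every Ccne1 library. Over all 13740 genes tested with edgeR's quasi-likelihood test at a Benjamini-Hochberg adjusted p under 0.05, 51.9% were called, 25.1% as higher and 26.8% as lower in Vgll3 libraries, and the groups of libraries did not overlap for 55.7%. Nothing is read from the members' counts beside these shares, since the members were chosen by this contrast. The RNA is from bulk sorted cells, so fewer cells of a type and less RNA per cell cannot be told apart for any gene below.

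**Figure D1:**
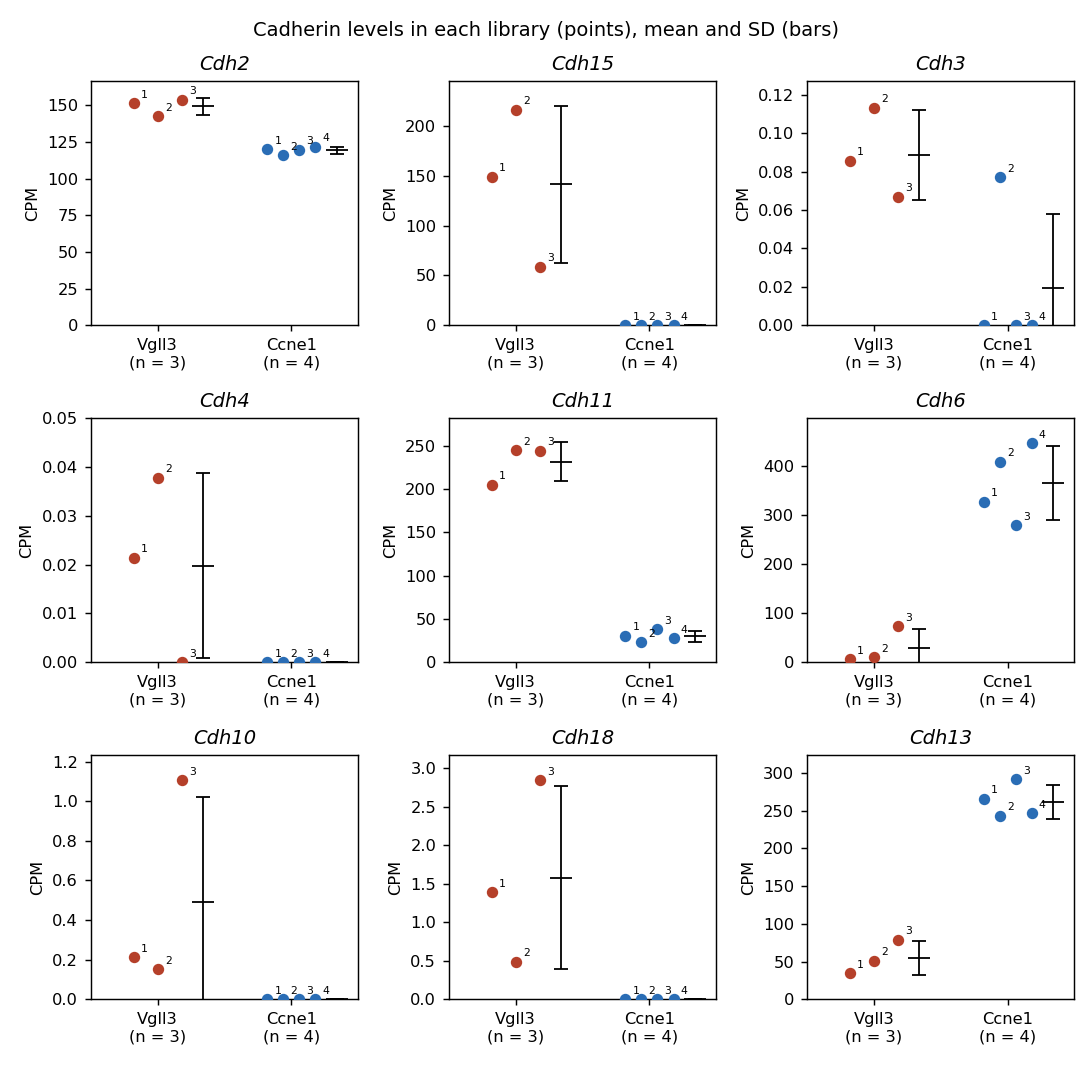
CPM of the 9 cadherins in each Vgll3-labelled library (left in each panel, numbered by replicate) and each Ccne1-labelled library (right), with the mean and SD as bars. Cdh15 and Cdh11 are high in the Vgll3 libraries, Cdh6 and Cdh13 in the Ccne1 libraries, and Cdh3, Cdh4 and Cdh10 stay near or below 1 CPM in all 7; the vertical scale differs between panels.

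The type I cadherins held one gene near 0 in one group and one that both groups carried. Cdh15, M-cadherin, is the cadherin of myoblasts and muscle satellite cells (ENSMUSG00000031962, mm10 chromosome 8, 122847966 to 122867397). It had 149, 216 and 58.8 CPM in Vgll3 libraries 1 to 3, against 0.227, 0, 0.186 and 0.0363 CPM in Ccne1 libraries 1 to 4. All Vgll3 libraries were high, the third the lowest of them, while the Ccne1 libraries held next to no reads of the gene. Summed over libraries, that is 14422 counts in the Vgll3 group and 12 counts in the Ccne1 group, with a 95% Poisson interval for the 12 of 6.20 to 20.96 counts, which covers counting error only. The fitted log2 fold change, Vgll3 over Ccne1, was 10.54 ± 0.80 (SE). Because it rests on 12 counts in its denominator it moved between 9.87, without Ccne1 replicate 2, and 11.11, without Ccne1 replicate 3.

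Cdh2, N-cadherin, is the type I cadherin of mesenchymal and neural cells (ENSMUSG00000024304, mm10 chromosome 18, 16588877 to 16809246). It had 151, 143 and 154 CPM in Vgll3 libraries, against 120, 116, 120 and 122 CPM in Ccne1 libraries. The groups did not overlap, but the log2 difference was small, 0.32 ± 0.06 (SE), a mean of 149 ± 5.89 against 119 ± 2.53 CPM (SD, n = 3 and 4). Genes of its chromosome were on the whole shifted the same way. The 381 tested there had a median log2 fold change of 0.29, against a median of 0.01 over all genes. Of the 381, 158 were called higher and 48 lower in Vgll3 libraries, beside 25.1% and 26.8% of all genes. Whether the shift of Cdh2 is separate from that of its chromosome was not tested.

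The remaining type I members were at the floor of detection. Cdh3, P-cadherin of epithelia and placenta, had 4, 3 and 2 counts in Vgll3 libraries and 0, 4, 0 and 0 counts in Ccne1 libraries. Cdh4, R-cadherin, first known from the retina, had 1, 1 and 0 counts in Vgll3 libraries and 0 counts in each Ccne1 library. Where a library has 0 counts its true level may still reach 3 counts, which is 0.0577 to 0.136 CPM over the 7 libraries, so no difference in either gene was detectable at this depth.

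Among type II cadherins, Cdh6 and Cdh11 ran in opposite directions. Cdh6, K-cadherin, known from kidney development (ENSMUSG00000039385, mm10 chromosome 15, 13028701 to 13173675), had 5.85, 10.6 and 73.2 CPM in Vgll3 libraries, against 328, 409, 279 and 447 CPM in Ccne1 libraries. Every Vgll3 library was below every Ccne1 library, and within the Vgll3 group the third library was well above the first and second. The mean was 29.9 ± 37.6 against 366 ± 76.0 CPM (SD, n = 3 and 4), and the log2 fold change was -3.62 ± 0.98 (SE). Without Vgll3 replicate 3 it was -5.50, so that library alone made the fitted difference smaller.

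Cdh11, OB-cadherin, is a type II cadherin of osteoblasts, fibroblasts and other mesenchymal cells (ENSMUSG00000031673, mm10 chromosome 8, 102632095 to 102785642). It had 205, 245 and 245 CPM in Vgll3 libraries, against 30.7, 23.1, 38.1 and 27.9 CPM in Ccne1 libraries. The Vgll3 libraries lay close together and far above the Ccne1 libraries, with no departure in the third. The log2 fold change was 2.95 ± 0.16 (SE) and stayed between 2.85 and 3.09 under the 11 alternative settings. Of 7 other genes known from osteoblasts, 4 were tested and 4 were called lower in Vgll3 libraries, beside 26.8% of all genes. Runx2, the osteoblast lineage factor, had a log2 fold change of -0.45 (adjusted p = 0.00403), and Spp1, osteopontin, one of -1.30 (adjusted p = 0.000404). Ibsp, bone sialoprotein, fell by 2.95 (adjusted p = 0.00368) and Dmp1, a protein of bone and dentine matrix, by 2.13 (adjusted p = 0.0367) on the log2 scale. Both were low in every library. Ibsp had 0.0669 to 0.416 CPM in Vgll3 libraries, against 0.981 to 1.77 CPM in Ccne1 libraries. Dmp1 had 0.0429 to 0.302 CPM in Vgll3 libraries, against 0.310 to 0.799 CPM in Ccne1 libraries. The call of Dmp1 was lost in 4 of 8 alternative settings, among them without Vgll3 replicate 1 or 3 (adjusted p of up to 0.111). Sp7, another factor of the lineage, had too few counts to test, 23 in the Vgll3 group and 8 in the Ccne1 group.

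Cdh18 and Cdh10, type II cadherins known from the brain, had counts in the Vgll3 libraries and none in any Ccne1 library. Cdh18 (ENSMUSG00000040420) had 1.39, 0.491 and 2.84 CPM in Vgll3 libraries, 163 counts in all, which is at least 15.9-fold higher than the mean of the 3-count floors of the 4 Ccne1 libraries, or at least 9.51-fold without Vgll3 replicate 3. Cdh10 had 10, 4 and 33 counts in Vgll3 libraries, 47 in all, at least 4.95-fold higher on the same basis, or at least 1.85-fold without Vgll3 replicate 3. Both were highest in Vgll3 replicate 3, the library in which Cdh15 was lowest and Cdh6 highest of the Vgll3 group.

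Cdh13, T-cadherin, binds adiponectin and is common in endothelium, smooth muscle and mesenchymal cells (ENSMUSG00000031841, mm10 chromosome 8, 118283733 to 119324921). It had 34.3, 51.2 and 79.0 CPM in Vgll3 libraries, against 266, 243, 292 and 246 CPM in Ccne1 libraries. The groups did not overlap and the third Vgll3 library was again the nearest to the Ccne1 group. The log2 fold change was -2.26 ± 0.27 (SE), and -2.61 without that library.

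The genes with the most similar profiles were found by the root mean square difference of log2 CPM over the 7 libraries, after each gene's mean was subtracted. For Cdh6 they were Clmp, a tight-junction protein of the immunoglobulin family (0.257), Gata4, a transcription factor of heart and endoderm (0.269), and Btbd17 (0.287). Clmp had 1.52, 1.85 and 14.2 CPM in Vgll3 libraries, against 67.0, 77.2, 72.8 and 70.8 CPM in Ccne1 libraries, the same rise in the third Vgll3 library. For Cdh13 they were Notum, a secreted enzyme that inactivates Wnt proteins (0.0791), Grb14, an adaptor that binds the insulin receptor (0.131), and the kinesin Kif5c (0.142).

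For Cdh11 the nearest profiles were those of Apcdd1, a Wnt inhibitor (0.130), the sterol synthesis enzyme Cyp51 (0.166) and Nr5a1, a nuclear receptor of steroid-producing cells (0.187). Cdh2, whose profile is nearly flat, was nearest to the actin-binding protein gene Afap1 (0.0310), the proteasome subunit gene Psma4 (0.0381) and Clpb (0.0429). No gene was close to Cdh15: the nearest were Magea8 (1.37), which has near-identical copies that make its counts uncertain, the muscle splicing factor gene Rbm20 (1.66) and Itm2a (1.74).

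The sum and the make-up of the cadherin RNA were then compared, with CPM divided by the kilobases of merged exons of each gene. The summed level of the 9 genes was 96.6 ± 19.0 CPM per kb in Vgll3 libraries and 82.0 ± 6.08 in Ccne1 libraries (SD, n = 3 and 4), and the ranges overlapped, 80.5 to 118 against 76.1 to 89.7. The make-up had little in common. Cdh15 held 50.0%, 56.5% and 22.5% of the sum in Vgll3 libraries and at most 0.0893% in a Ccne1 library. Cdh6 held 0.708%, 0.997% and 10.1% in Vgll3 libraries and 40.7% to 55.2% in Ccne1 libraries. Cdh11 and Cdh13 made the same exchange at a smaller scale, with Cdh11 at 23.4% to 34.1% in Vgll3 and 3.09% to 5.62% in Ccne1 libraries and Cdh13 at 3.33% to 8.74% in Vgll3 and 24.5% to 34.1% in Ccne1 libraries. The share of Cdh2 was alike in both, 15.0% to 23.7% in Vgll3 and 16.8% to 19.5% in Ccne1 libraries.

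The order of levels per kb in Vgll3 libraries was Cdh15 (43.5 ± 24.3), Cdh11 (26.0 ± 2.56), Cdh2 (18.5 ± 0.730), Cdh13 (4.88 ± 2.01) and Cdh6 (3.31 ± 4.17 CPM per kb). Cdh15 and Cdh11 did not differ beyond their spread, nor did Cdh13 and Cdh6, while every library had more Cdh11 than Cdh2. In Ccne1 libraries the order was Cdh6 (40.5 ± 8.43), Cdh13 (23.3 ± 2.00), Cdh2 (14.8 ± 0.314) and Cdh11 (3.36 ± 0.704 CPM per kb), with no overlap between neighbours. The lead of Cdh6 depends on the gene length used: with the longest transcript in place of merged exons, Cdh13 held 43.5% and Cdh6 33.8% of the sum in Ccne1 libraries.

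**Figure D2:**
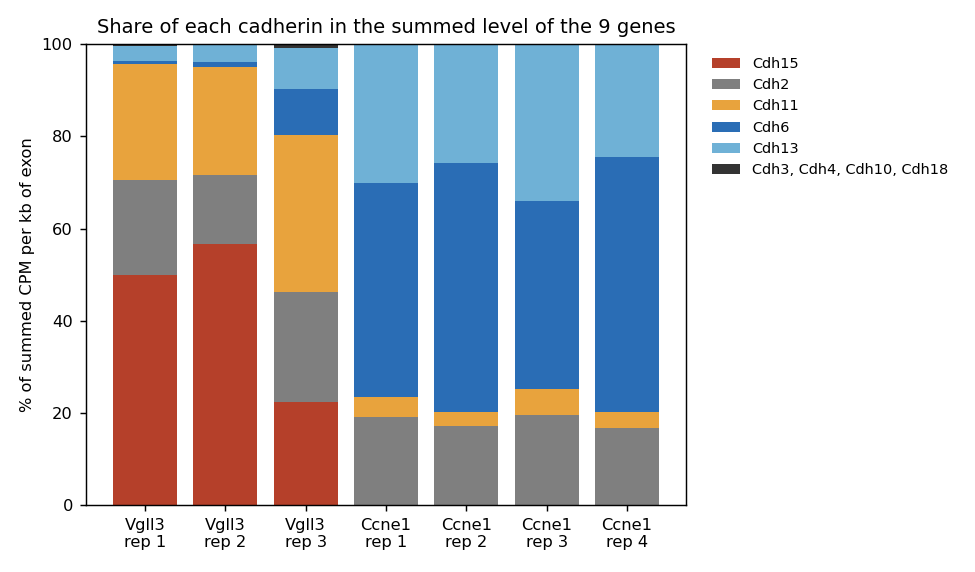
Share of each cadherin in the summed CPM per kb of merged exon of the 9 genes, 1 bar per library, the 3 Vgll3-labelled libraries on the left and the 4 Ccne1-labelled ones on the right. Cdh15 and Cdh11 fill most of the Vgll3 bars, Cdh6 and Cdh13 most of the Ccne1 bars, Cdh2 takes a like slice in all 7, and Vgll3 replicate 3 has the smallest Cdh15 share and the largest Cdh6 share of its group.

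Myogenic genes were examined beside Cdh15. Myod1, Myog and Myf6, the factors that drive muscle differentiation, and Mymk, Mymx and Cav3, of muscle fusion and muscle caveolae, had 0 counts in all 7 libraries. Pax7, the satellite cell factor, had 0, 0 and 4 counts in Vgll3 libraries and 0, 1, 0 and 0 in Ccne1 libraries, and Myf5 had 0, 0 and 6 counts in Vgll3 libraries and 0, 1, 0 and 0 in Ccne1 libraries. The Cdh15 reads thus stood in libraries where these markers were at or near 0, and the libraries with the most Cdh15, Vgll3 replicates 1 and 2, had no read of Pax7 or Myf5.

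Of the 21 myogenic genes, 8 were tested, 1 was called higher and 1 lower in Vgll3 libraries, beside 25.1% and 26.8% of all genes. The one that rose was Des, the intermediate filament of muscle, with 1.41, 1.93 and 1.41 CPM in Vgll3 libraries, against 0.500, 0.962, 0.805 and 0.836 CPM in Ccne1 libraries (log2 fold change 1.01, adjusted p = 0.0335). That call was lost in 7 of 11 alternative settings, where the adjusted p reached 0.131, among them without any one of Vgll3 replicates 1 and 2 and Ccne1 replicates 1, 3 and 4. Itga7, a laminin receptor subunit of muscle and the most abundant of the list, fell by 1.03 on the log2 scale (adjusted p = 0.000877). It still had 264, 236 and 161 CPM in Vgll3 libraries, against 416, 492, 479 and 421 CPM in Ccne1 libraries, so not every gene of the list was near 0. Pax3, the muscle progenitor and neural crest factor, had 0.536, 0.416 and 6.63 CPM in Vgll3 libraries, against 7.69, 8.91, 8.05 and 9.41 CPM in Ccne1 libraries. Its call turned on the third Vgll3 library: the log2 fold change was -1.77 with it (adjusted p = 0.161) and -4.11 without it (adjusted p = 1.74e-06). So did that of Chrna1, a subunit of the muscle acetylcholine receptor, at -0.18 with it (adjusted p = 0.727) and -0.88 without it (adjusted p = 0.00346).

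Of 10 myofibre genes, 4 were tested, 0 called higher and 1 lower in Vgll3 libraries, beside 25.1% and 26.8% of all genes. The 1 called was Acta1, skeletal muscle actin. It fell by 3.91 on the log2 scale (adjusted p = 0.002), with a log2 fold change of -4.88 without Vgll3 replicate 1. The summed level of that list was 2.08 to 2.57 CPM in Vgll3 and 5.02 to 6.19 CPM in Ccne1 libraries, with Ckm, muscle creatine kinase, at 11 counts or fewer in each library.

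The DNA before the start of Cdh15 and of Cdh6, the cadherins with the largest mean shares over merged exons in each group, is shown because factors that bind E-boxes, such as MyoD in muscle and the Zeb, Snail and Twist repressors of Cdh1, are known regulators of cadherin genes. Sequences and starts are those of RefSeq for GRCm38.p6, in which 4 of the 9 genes had an entry (Cdh6, Cdh10, Cdh15 and Cdh18). The motif was chosen with the values known. The 250 bases before the Cdh15 start hold 3 E-boxes (CANNTG, in capitals), at 236, 135 and 32 bases before the start, each shown with 10 bases on either side on the plus strand, 5′ to 3′.
Cdh15 E-box 1, chr8:122848128-122848153: gcactgatcaCATATGctgtcactca
Cdh15 E-box 2, chr8:122848229-122848254: ggcccacctaCATGTGctgtcactca
Cdh15 E-box 3, chr8:122848332-122848357: ccccaccacaCACGTGcagtcccttg
The first and second lie in a repeated stretch, as the letters that follow each motif are the same. The window lies within an exon of the GENCODE annotation of the gene, whose start is further upstream.

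The 250 bases before the Cdh6 start, on the minus strand and in no annotated exon, hold 1 E-box (in capitals), 15 bases before the start.
Cdh6 promoter, chr15:13173676-13173925: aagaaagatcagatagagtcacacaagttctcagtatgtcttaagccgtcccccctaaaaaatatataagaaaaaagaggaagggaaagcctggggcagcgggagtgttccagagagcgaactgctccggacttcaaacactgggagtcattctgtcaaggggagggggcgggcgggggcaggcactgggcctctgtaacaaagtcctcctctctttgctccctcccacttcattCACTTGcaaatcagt
An E-box reads the same class of letters on both strands, and 66.2% of 32851 RefSeq promoters of this length hold at least 1, with a mean of 1.16, so a match is a common feature. Cdh10 had 4 matches and Cdh18 none. The E-box forms CAGCTG and CACCTG, also searched, were in 13.0% and 17.2% of promoters and had 0 matches in each of these 4. GGAATG, the core of TEAD binding sites, searched on both strands, was in 12.6% of promoters and in Cdh10 alone of these 4. A match is a description of the letters and not a measured site.

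No tested gene near Cdh15 had a difference as large as that of Cdh15. Within 1 Mb of the Cdh15 start 37 other genes were tested, 11 called higher and 7 lower in Vgll3 libraries, beside 25.1% and 26.8% of all genes. The log2 fold changes of the 37 ran between -3.13 (Cyba, a subunit of the phagocyte oxidase) and 2.16 (Slc7a5, an amino acid transporter) around a median of 0.06. The nearest tested neighbours on either side were Acsf3 (0.03, not called) and Ankrd11 (0.28, called higher). Around Cdh6, 6 genes were tested, 2 called higher and 1 lower, beside the same shares of all genes. The log2 fold changes of the 6 lay between -0.39 and 0.36. Cdh11 and Cdh13, on the same chromosome as Cdh15, start 20.1 Mb and 4.56 Mb from it. The 721 tested genes of that chromosome had a median log2 fold change of -0.14. Of the 721, 123 were called higher and 268 lower, beside the same shares of all genes. Within 1 Mb of Cdh13, 2 genes were tested: Plcg2 (-2.26, called lower) and Mphosph6 (0.15, not called). The 1 tested gene near Cdh11 was Gm8730 (0.48, called higher). Near Cdh2, 2 were tested, at 0.41 (not called) and 0.56 (called higher). Whether the difference of Cdh13 is separate from that of its chromosome or neighbours was not tested.

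**Figure D3:**
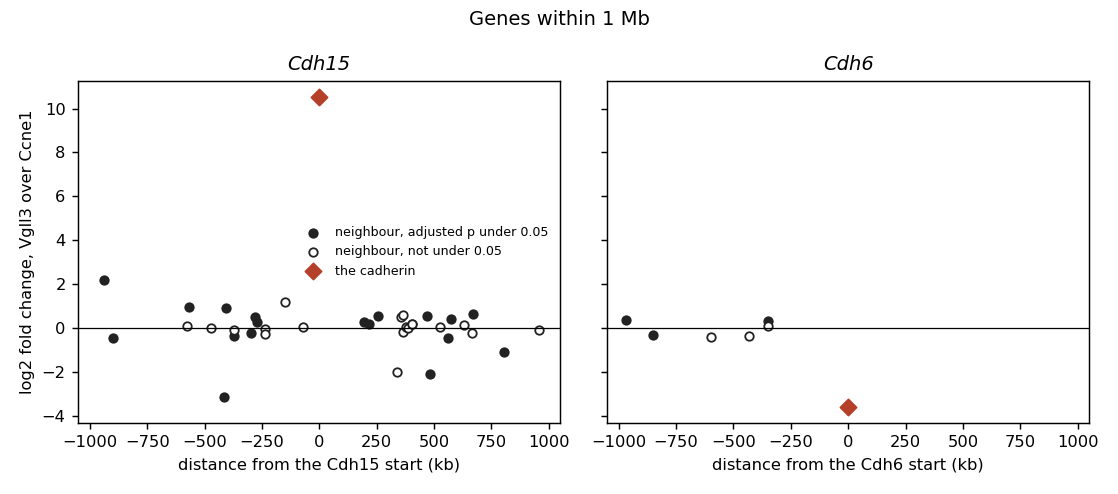
Log2 fold change, Vgll3 over Ccne1, of each tested gene within 1 Mb of the start of Cdh15 (left, 37 genes) and Cdh6 (right, 6 genes), against distance in kb; filled points were called and open points were not. The cadherin (diamond) lies at 10.54 on the left, above every neighbour, and at -3.62 on the right, below every neighbour.

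Overlapping genes bear on the counts. Gm20388, an annotated gene on the same strand over Cdh15, had 0 counts in the Vgll3 libraries and 25, 0, 0 and 113 counts in Ccne1 libraries 1 to 4. Its annotated transcript shares no 31-base stretch with Cdh15. Hnrnpa1l2-ps2, a pseudogene on the opposite strand within Cdh18, had 136, 105 and 81 counts in Vgll3 libraries and 55, 157, 100 and 88 counts in Ccne1 libraries, where Cdh18 had none. No 31-base stretch was shared between any 2 of the 9 cadherins, and between 0% (Cdh15 and Cdh18) and 4.77% (Cdh11) of a member's stretches occur in another gene.

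Of 10 other type I and type II cadherins, 2 had enough counts to test (Cdh5 and Cdh24). Of these, 0 were called higher and 1 lower in Vgll3 libraries, beside 25.1% and 26.8% of all genes. DESeq2 and an unadjusted p under 0.05 gave the same counts for the list. Cdh24, a type II cadherin, fell to 8.45, 13.4 and 18.8 CPM in Vgll3 libraries, against 29.5, 25.0, 28.3 and 32.3 CPM in Ccne1 libraries (log2 fold change -1.09, adjusted p = 0.00728). Cdh1, E-cadherin, had 14, 3 and 25 counts in Vgll3 libraries and 5, 15, 4 and 3 counts in Ccne1 libraries, too few to test. An exchange of Cdh1 for Cdh2 between the groups was not seen: Cdh1 was at most 0.837 CPM in any library, and Cdh2 was carried by both groups.

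Cdh5, VE-cadherin of endothelium, had 5.57, 9.60 and 17.2 CPM in Vgll3 libraries, against 26.2, 11.3, 13.8 and 13.9 CPM in Ccne1 libraries, and the groups overlapped (log2 fold change -0.60, 95% interval -1.66 to 0.47, adjusted p = 0.30). Without Vgll3 replicate 3 it was -1.11, still not called (adjusted p = 0.0728). Of the 9 endothelial markers tested, 0 were called by edgeR or DESeq2, and 0 had an unadjusted p under 0.05, where edgeR called 51.9% of all genes. Their summed level was 29.7, 59.0 and 219 CPM in Vgll3 libraries, against 116, 42.0, 72.0 and 48.2 CPM in Ccne1 libraries. Most of the third Vgll3 value was Pecam1, an adhesion molecule of endothelium, platelets and leukocytes, at 184 CPM. Its log2 fold change was 0.94 (adjusted p = 0.410), and -0.60 without that library, not called in either case. Endothelium also expresses Cdh13, which was highest of its group in that library; the part of endothelial RNA in the Cdh13 values was not tested.

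Among 27 more distant superfamily genes, 8 were tested, 4 called higher and 3 lower in Vgll3 libraries, beside 25.1% and 26.8% of all genes. Cdh26 had 2.83, 3.97 and 5.12 CPM in Vgll3 libraries, against 0.0910, 0.192, 0.155 and 0.254 CPM in Ccne1 libraries (log2 fold change 4.46, adjusted p = 3.44e-05). Fat2, a giant protocadherin of epithelial migration, had 0.600, 0.869 and 1.20 CPM in Vgll3 libraries and 0 counts in every Ccne1 library, at least 9.0-fold higher than the mean 3-count floor. Its relatives Fat4 and Fat1, receptors of planar polarity and growth control, fell by 1.76 (adjusted p = 0.00166) and 0.82 (adjusted p = 0.000265) on the log2 scale. Clstn3, a calsyntenin, rose by 1.78 (adjusted p = 2.50e-05), and Clstn1, the most abundant of the list, rose by 0.27 (adjusted p = 0.00844), while Cdh23, the cadherin of hair cell tip links, fell by 0.81 (adjusted p = 0.0129). Of the desmosomal cadherins on the list, no library had more than 0.0669 CPM of any Dsg or Dsc gene.

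The catenins and their linkers tie cadherin tails to actin. Of 15, 12 were expressed enough to test, and the untested Ctnna2, Ctnna3 and Ctnnd2 had at most 24 counts in either group. Of the 12, 3 were called higher and 6 lower in Vgll3 libraries, beside 25.1% and 26.8% of all genes. Their median log2 fold change was -0.47, against 0.01 over all genes. Ctnnb1, beta-catenin, fell to 459, 431 and 377 CPM in Vgll3 libraries, against 565, 623, 568 and 580 CPM in Ccne1 libraries (log2 fold change -0.47 ± 0.09 SE, adjusted p = 0.00199). Jup, plakoglobin, the close relative of beta-catenin, fell to 1.11, 1.89 and 2.98 CPM in Vgll3 libraries, against 9.19, 7.35, 6.78 and 7.34 CPM in Ccne1 libraries (log2 fold change -1.95, adjusted p = 0.000833). Both proteins bind the same site of the classical cadherin tail, and for both every Vgll3 library was below every Ccne1 library.

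Ctnna1, alpha-catenin, which links beta-catenin to actin, rose to 485, 387 and 394 CPM in Vgll3 libraries, against 301, 319, 298 and 310 CPM in Ccne1 libraries (log2 fold change 0.46, adjusted p = 0.00283). It lies on chromosome 18, as Cdh2 does, where the tested genes had a median log2 fold change of 0.29. How much of the rise of Ctnna1 is shared with its chromosome was not tested. Ctnnd1, p120-catenin, which keeps cadherins at the surface, was 198, 189 and 161 CPM in Vgll3 libraries, against 151, 155, 158 and 147 CPM in Ccne1 libraries (log2 fold change 0.26, adjusted p = 0.0259), a call lost in 6 of 11 alternative settings, among them without Vgll3 replicate 1 or 2 and without Ccne1 replicate 1 or 4, with an adjusted p of up to 0.160. Vcl, vinculin, which joins junctions under tension, was not called (log2 fold change 0.23, adjusted p = 0.0545), but was called with DESeq2, with another scaling and without Vgll3 replicate 3 (adjusted p over the 11 settings 0.00522 to 0.242). Ajuba, a LIM protein that binds alpha-catenin, fell by 1.56 (adjusted p = 1.63e-05) and Lima1, which links the complex to actin, fell by 0.48 on the log2 scale (adjusted p = 0.000800). Ctnnal1, a relative of alpha-catenin, rose by 0.87 on the log2 scale (adjusted p = 0.00736). Plekha7, a linker of p120-catenin to microtubules, was at most 1.18 CPM and fell by 1.46 on the log2 scale (adjusted p = 0.0254), a call lost in 6 of 11 alternative settings, among them without Vgll3 replicate 1 or 2 and without Ccne1 replicate 1 or 4 (adjusted p of up to 0.134).

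**Figure D4:**
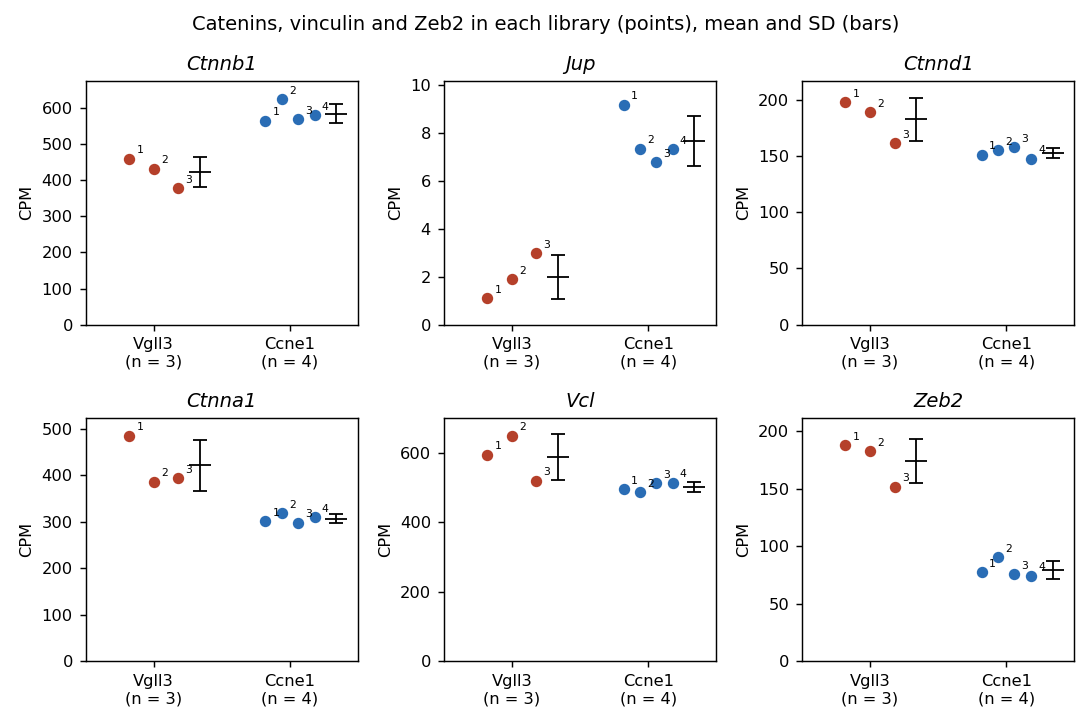
CPM of 4 catenin genes, vinculin (Vcl) and the Cdh1 repressor Zeb2 in each Vgll3-labelled library (left in each panel, numbered by replicate) and each Ccne1-labelled library (right), with the mean and SD as bars. Ctnnb1 and Jup are lower, and Ctnna1 and Zeb2 higher, in all 3 Vgll3 libraries than in any of the 4 Ccne1 libraries.

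Of 13 genes of proteases that trim or shed cadherins, all tested, 1 was called higher and 7 lower in Vgll3 libraries, beside 25.1% and 26.8% of all genes, with a median log2 fold change of -0.43. Furin, which removes the propeptide that keeps a new cadherin inactive, fell to 312, 258 and 267 CPM in Vgll3 libraries, against 451, 456, 439 and 414 CPM in Ccne1 libraries (log2 fold change -0.66, adjusted p = 0.000297). Adam10, the main sheddase of Cdh2, fell by 0.60 (adjusted p = 0.00134) and Adam15 by 0.72 (adjusted p = 5.67e-05) on the log2 scale. Of the gamma-secretase subunits, which cut the remaining stub, Psenen fell by 0.70 (adjusted p = 0.00208), Ncstn fell by 0.27 (adjusted p = 0.00514) and Psen2 rose by 0.86 (adjusted p = 0.00612). Pcsk5, a convertase like furin, was low in both groups and fell by 2.96 on the log2 scale (adjusted p = 0.0151), with a log2 fold change of -5.08 without Vgll3 replicate 1.

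Of 15 immunoglobulin-family adhesion genes, 11 were tested, 2 called higher and 4 lower in Vgll3 libraries, beside 25.1% and 26.8% of all genes. Ncam1, the neural cell adhesion molecule, also of myoblasts, rose to 197, 202 and 175 CPM in Vgll3 libraries, against 110, 100, 90.3 and 95.8 CPM in Ccne1 libraries (log2 fold change 0.95, adjusted p = 4.51e-05). Alcam rose by 1.22 (adjusted p = 0.00122). Nectin1, which clusters at new junctions, fell by 0.62 (adjusted p = 0.00298), and the junctional adhesion genes Jam2 and Jam3 fell by 1.98 (adjusted p = 0.00280) and 0.54 (adjusted p = 0.00626) on the log2 scale. Nectin3, a partner of Nectin1, had a log2 fold change of -0.24 (adjusted p = 0.0481), a call lost in 10 of 11 alternative settings and kept only without Vgll3 replicate 2 (adjusted p of up to 0.150).

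The repressors of Cdh1 were all expressed. Of 8, 3 were called higher and 1 lower in Vgll3 libraries, beside 25.1% and 26.8% of all genes, with a median log2 fold change of 0.12. Zeb2 rose to 188, 183 and 152 CPM in Vgll3 libraries, against 77.5, 90.7, 75.6 and 74.4 CPM in Ccne1 libraries (log2 fold change 1.13, adjusted p = 3.82e-05), and Twist2 fell by 0.70 (adjusted p = 0.00153). Zeb1 and Tcf3 rose by 0.27 (adjusted p = 0.00892) and 0.30 (adjusted p = 0.00708) on the log2 scale. Both calls were lost when the replicate number was added to the model (adjusted p = 0.0882 and 0.0891). Zeb1 lies on chromosome 18, as Cdh2 does, where the tested genes had a median log2 fold change of 0.29. Whether the rise of Zeb1 is separate from that of its chromosome was not tested. Snai1, Snai2, Twist1 and Tcf4 did not pass the test. Of these, Twist1 was near the threshold (log2 fold change 0.17, adjusted p = 0.05475). It was called higher with DESeq2 (adjusted p = 0.0143), with another scaling (0.0412) and without Ccne1 replicate 1 (0.0466). Of 16 epithelial genes, 2 were tested, 0 called higher and 1 lower by edgeR and DESeq2 alike, beside 25.1% and 26.8% of all genes by edgeR. The 1 called was Krt8, a keratin of simple epithelia. It had 0.129, 0.0378 and 0.167 CPM in Vgll3 libraries, against 1.64, 3.93, 1.83 and 1.85 CPM in Ccne1 libraries (log2 fold change -4.30, adjusted p = 0.000290).

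**Figure D5:**
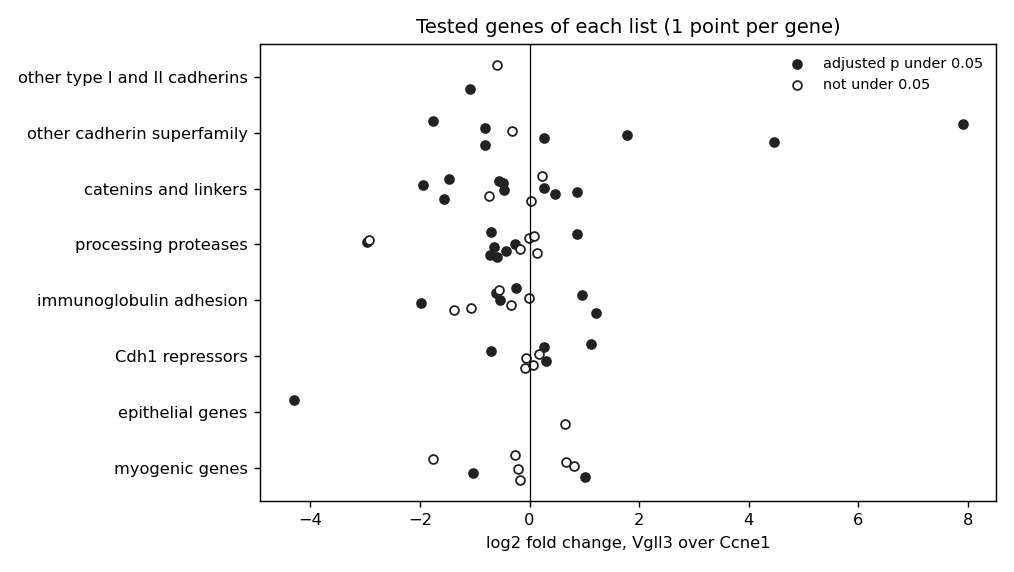
Log2 fold change, Vgll3 over Ccne1, of every tested gene in 8 lists around the cadherins, 1 point per gene; filled points had an adjusted p under 0.05 and open points did not. Catenins, processing proteases and immunoglobulin-family adhesion genes lie mostly left of 0; the point near 8 is Fat2, which had no count in any Ccne1 library, so its fitted value depends on the prior count and is no bound.

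Markers of other cells that a sort could carry over were low or uncalled, with exceptions. The counts below stand beside 51.9% of all genes called by edgeR, 25.1% as higher and 26.8% as lower in Vgll3 libraries. Of 6 macrophage genes tested, 0 were called by edgeR or DESeq2 and 0 had an unadjusted p under 0.05, and their list summed to 7.48 to 17.2 CPM in Vgll3 and 7.99 to 16.9 CPM in Ccne1 libraries. Without Vgll3 replicate 3, 7 were tested and Cd68, the most abundant of them, was called lower (log2 fold change -0.98, adjusted p = 0.0427, against -0.36 and an adjusted p of 0.514 over all libraries). Of 2 keratinocyte genes tested, 0 were called by edgeR or DESeq2 and 0 had an unadjusted p under 0.05, with the more abundant, Sfn, at a log2 fold change of -0.10 (adjusted p = 0.681). Of 3 Schwann cell genes tested, Erbb3, a neuregulin receptor, was called higher in Vgll3 libraries, a call lost in 4 of 11 settings, among them without Vgll3 replicate 2 and without Ccne1 replicate 3 or 4, while Mbp, a myelin gene, was not (log2 fold change 0.13, adjusted p = 0.799). Of 6 pericyte genes, 5 were tested, 2 called higher and 1 lower in Vgll3 libraries, with a median log2 fold change of -0.55. Rgs5 rose by 3.46 (adjusted p = 0.000431) and Notch3 by 1.53 (adjusted p = 0.0168). The Notch3 call was lost without Vgll3 replicate 2 (adjusted p = 0.0587) and without a filter on low counts. Cspg4, the most abundant of the list, fell by 1.88 on the log2 scale (adjusted p = 3.86e-06). Kcnj8 (log2 fold change -1.31, adjusted p = 0.0628) and Abcc9 (-0.55, adjusted p = 0.267) were not called. The part of such cells in the cadherin values was not tested.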

How the data were processed

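The authors deposited a table of unscaled estimated counts, with Ensembl genes in rows and the 7 libraries in columns. Salmon and the build mm10 are named in the submitters' processing notes. Its version, the gene annotation and the use of strand were not given in the sources used here. All values were whole. Symbols and 1-based coordinates came from GENCODE for GRCm38 (equal to mm10) for 35493 of 35727 genes. Genes were tested with edgeR 4.0.16 in R 4.3.3 (filterByExpr, TMM scaling, robust quasi-likelihood F test, model as the only term, Benjamini-Hochberg over 13740 genes, threshold 0.05). Each SE was the size of the log2 fold change over the root of F. Library sizes for CPM were TMM-scaled, and profiles used a prior count of 2. The alternatives were DESeq2 1.42.0, RLE scaling, no filter, a replicate block, each library left out, and another gene length; leaving out single libraries for the lower bounds of Cdh18, Cdh10 and Fat2 was chosen after seeing the data.

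The members, lists and motifs were chosen with earlier results of these data known, so no list was tested as a set. The rule for named genes took 72: the 9 members, Cdh1, Cdh5, Ctnnb1, Jup, Ctnnd1, Ctnna1 and Vcl, of each list the called genes with the largest rises and falls (at most 3 each way) and its most abundant gene, and the 3 nearest profiles of each member above 10 CPM. Other genes given as examples (among them Adam10, Lima1, Pax3, Pax7, Myf5, Runx2, Sp7, Chrna1, Ncstn, Nectin3, Ckm, Acsf3, Ankrd11, Cyba and Slc7a5) were chosen after their values were seen. So were Plcg2, Mphosph6, Gm8730, Kcnj8 and Abcc9. Library totals of 21725890 to 53610300 counts set the precision, and the Poisson interval and the floors cover counting error only, while intervals of fold changes also hold the spread between libraries.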

Additional observations from a re-analysis of the deposited data

Results flagged for a closer look

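In 68 tested genes that the naming rule took, the 4 Ccne1 libraries were examined for a single library far from the others of its group (the 3 Vgll3 libraries are too few for this), and chance alone marks about 1 gene in 20. Ajuba was 97.3 CPM in Ccne1 replicate 1, below 116 to 118 CPM in the other Ccne1 libraries. Tcf3 was 151 CPM in Ccne1 replicate 1, above 132 to 134 CPM in the others. Krt8 was 3.93 CPM in Ccne1 replicate 2, above 1.64 to 1.85 CPM in the others. No cadherin of the 9 was marked in this way.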

How the results depend on the processing

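The 6 fitted cadherins kept their direction under all 11 alternatives. Cdh6 alone moved beyond the spread between replicates, to -5.50 without Vgll3 replicate 3. Without a filter on low counts, 1 other classical cadherin was higher (Cdh22) and 0 myogenic genes were higher. Replicate numbers did not pair the libraries: deviations of same-numbered libraries from their group means correlated at -0.141, -0.159 and -0.0981. With the replicate block 2287 genes were called higher in all, 1 catenin or linker, 1 Cdh1 repressor and 0 myogenic genes, and 4794 of its 4841 calls were among the 7133. Leaving out 1 library gave 0 to 1 myogenic genes higher and 1 to 3 lower (3 without Vgll3 replicate 3). Total calls were 7446 with DESeq2, 7157 with RLE scaling, 6649 without a filter and 6023 to 7334 with 1 library left out. Of single genes outside the 9, 52 gene-by-setting results lost a call, 21 gained one and 1174 kept their side. With the longest transcript as length, 4 of 18 mean shares moved by more than 1 SD: in Vgll3 libraries Cdh13 (9.28%) and Cdh3 (0.0152%), and in Ccne1 libraries Cdh13 (43.5%) and Cdh6 (33.8%). Among genes of the lists and nearest profiles, the block alone ended the calls of Zeb1 (adjusted p = 0.0882), Tcf3 (0.0891), Adam9 (0.0504), Ncstn (0.0828), Ctnnal1 (0.0559), Clstn1 (0.0790), Psma4 (0.0544), Clmp (0.0533) and Btbd17 (0.0529). The lower bounds of Cdh18, Cdh10 and Fat2 were 9.51 to 21.4, 1.85 to 6.66 and 7.42 to 10.5 with 1 library left out. The cause of these shifts was not tested. Depth leaves Cdh3, Cdh4 and Cdh1 undecided.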
